A study of Mus musculus with 28 samples.

Results

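The Slit ligands are the secreted guidance proteins Slit1, Slit2 and Slit3, and their genes are 3 of the 52636 genes counted here. They were taken by symbol, as the whole Slit family of the mouse, and all 3 passed the filter on low counts that left 19171 genes for testing. The ventromedial prefrontal cortex, a frontal midline region involved in emotional control, was taken from 28 female mice in 4 groups of 7 for RNA sequencing. The series title names a sex-specific role of SLIT1 in stress susceptibility. Mice labelled Slit1 knockdown (KD) without stress were set against mice given a LacZ virus, the control, without stress, and KD mice with stress against LacZ mice with stress. Stress was 3 days of a procedure abbreviated sCVS, and unstressed mice were taken at baseline. All 28 mice carried a virus, whose placement was checked by fluorescence. The virus type, promoter, knockdown sequence, mouse strain and age are not given in the sources used here. The mice are separate animals per the labels.

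Slit proteins are released by cells and bind Robo receptors on growing axons and migrating cells, which they mostly repel. All 3 ligands share a run of leucine-rich repeats, of which the second group holds the Robo binding site, followed by EGF-like repeats. Slit1 is the member found mainly in the nervous system, while Slit2 and Slit3 are also made in many other organs. In the adult brain the family is known for shaping dendrites and axon branches, and Slit2 is also studied for its effect on vessels.

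The 3 genes are alike in sequence and differ in base composition, and the same coding stretch is printed for each to show both. The part of base composition in the results was not tested. The 3 coding sequences were translated and aligned as amino acids. Slit1 and Slit2 encode the same amino acid at 65.8% of 1520 aligned codons, and Slit1 and Slit3 at 60.4% of 1516. For Slit2 and Slit3 it was 66.8% of 1511. The stretch shown is the 40 codons without a gap in which the 3 genes agree most, with the same amino acid at 34 codons. In all, 12 of the 40 codons are identical in all 3 genes, and 22 differ while encoding the same amino acid. Each stretch lies within 1 coding exon on GRCm38, exon 14 of 37 in Slit1 (chr19:41639710-41639829, minus strand), exon 15 of 39 in Slit2 (chr5:48219954-48220073, plus strand) and exon 14 of 36 in Slit3 (chr11:35612310-35612429, plus strand). Capitals mark a G or C at the third position of a codon, read from the GENCODE M21 transcripts.
Slit1: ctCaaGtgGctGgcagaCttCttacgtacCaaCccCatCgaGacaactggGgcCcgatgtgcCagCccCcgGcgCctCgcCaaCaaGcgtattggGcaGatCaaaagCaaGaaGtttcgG
Slit2: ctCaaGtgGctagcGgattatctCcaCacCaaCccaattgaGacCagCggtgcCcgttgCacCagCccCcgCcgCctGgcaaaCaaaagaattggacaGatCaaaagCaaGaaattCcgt
Slit3: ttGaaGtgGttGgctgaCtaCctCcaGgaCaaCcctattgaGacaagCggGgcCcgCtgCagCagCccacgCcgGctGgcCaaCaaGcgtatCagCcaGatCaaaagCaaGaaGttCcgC
In these 40 codons the third base is G or C at 29 codons of Slit1, 25 of Slit2 and 33 of Slit3. Over the whole coding sequence the share is 73.1% in Slit1, 50.8% in Slit2 and 72.8% in Slit3, so that Slit2 is the AT-rich member. The longest transcripts have 58.9% GC in Slit1, 45.5% in Slit2 and 56.8% in Slit3.

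The 3 genes are long, and the authors counted fragments over their whole spans, introns included. Slit1 (ENSMUSG00000025020) runs from 41600257 to 41743665 of chromosome 19, a span of 143.4 kb of which 4.13% is exon. Slit2 (ENSMUSG00000031558) runs from 47983138 to 48307733 of chromosome 5, a span of 324.6 kb with 7.84% exon, or 3.10% for the exons of its protein-coding transcripts alone. Slit3 (ENSMUSG00000056427) runs from 35121224 to 35708507 of chromosome 11, a span of 587.3 kb with 1.03% exon. The levels given here are therefore levels of reads over introns and exons together, and reads on the opposite strand cannot be told apart from those of the gene.

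Introns of Slit2 and Slit3 each hold a gene for the microRNA miR-218, a regulator known in mouse motor neurons, and its mature sequence is shown because both hosts carry the same one. RefSeq places it at 48223966 to 48223986 of chromosome 5 in Mir218-1 and at 35616840 to 35616860 of chromosome 11 in Mir218-2, plus strand in both, on GRCm38.p6. The seed, bases 2 to 8, is in capitals.
miR-218-5p: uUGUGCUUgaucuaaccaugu
Slit2 overlaps 7 annotated genes, among them Mir218-1 and the antisense transcript 4930518C09Rik, which together cover 4.14% of its span, and Slit3 overlaps 4, among them Mir218-2 and the opposite-strand gene Gm12123, which cover 0.245%. Slit1 overlaps none. All 11 are listed at 0 in every library, none touches an exon of its host, and the small RNA itself was not measured. Each lies wholly inside its host, so any fragment from it also falls in the counted span of the host. Their 0 therefore cannot tell whether they were expressed.

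The libraries held 30.6 to 44.3 M counted fragments. Slit1 had 180 to 2901 fragments per library, Slit2 3476 to 9611 and Slit3 2113 to 20091, so counting error is small beside the spread between mice. Markers of excitatory cortical neurons were present in all libraries, with all 12 listed genes tested and a summed level of 808.1 to 1937.0 CPM, counts scaled to library size. A first principal component held 58.8% of the variance of log2 CPM. Each library was also given a GC slope, the change of log2 CPM per 10 points of transcript GC content over the 19117 tested genes with a GC value, leaving out the Slit genes. It ran from -1.17 to 1.21, with group means of -0.02 in KD unstressed, 0.01 in LacZ unstressed, -0.00 in KD stressed and 0.01 in LacZ stressed libraries. Further, several libraries stood apart from the rest of their group in transcripts of other tissues or cells. The first 3 named here, all stressed, were left out of a later fit. KD stressed replicate 2 had 1080.3 CPM of bone markers, against at most 48.6 CPM in the other KD stressed libraries. KD stressed replicate 7 had 318.8 CPM of striatal markers, against at most 92.3 CPM there, and LacZ stressed replicate 4 had 12.4 CPM of T cell markers, against at least 70.2 CPM in the other LacZ stressed libraries. In other groups T cell markers were nearly as low, at 15.8 CPM in KD unstressed replicate 5 and 20.7 CPM in LacZ unstressed replicate 7. LacZ stressed replicate 4 thus stood apart within its own group only. LacZ unstressed replicate 6 had 1232.6 CPM of oligodendrocyte markers, against at most 655.3 CPM in the other LacZ unstressed libraries. Its striatal markers were at 174.3 CPM, against at most 97.7 CPM there, and it stays in the fit without 3 libraries. A further library, KD unstressed replicate 7, had 2122.8 CPM of oligodendrocyte markers, against at most 733.9 CPM in the other KD unstressed libraries, and also the lowest GC slope and the highest mitochondrial share, 14.2%. It stays in the fit without 3 libraries; left out by itself, the label on average gave 0.07 for Slit1, -0.01 for Slit2 and 0.27 for Slit3, and stress on average -0.46, -0.15 and -0.40 for Slit1, Slit2 and Slit3.

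Slit1, the targeted gene, did not differ between libraries labelled KD and LacZ beyond the spread between mice. Without stress, 7 KD libraries ran from 9.48 to 59.9 CPM with a median of 21.4, and 7 LacZ libraries from 12.6 to 56.3 CPM with a median of 16.9. With stress, KD libraries ran from 7.48 to 30.9 CPM with a median of 13.03, and LacZ libraries from 9.28 to 33.9 CPM with a median of 13.5. The ranges overlapped almost fully in both pairs, and the highest Slit1 of all 28 libraries stood in a library labelled KD. Means were 25.9 ± 17.5 CPM in KD and 24.4 ± 16.1 CPM in LacZ unstressed libraries, and 18.2 ± 9.80 CPM in KD and 19.8 ± 10.2 CPM in LacZ stressed libraries (SD, n = 7 each). The files cannot tell whether fewer cells carried Slit1 RNA or each carried less, since the tissue was sequenced whole, and cells that the virus did not reach are in it too.

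**Figure D1:**
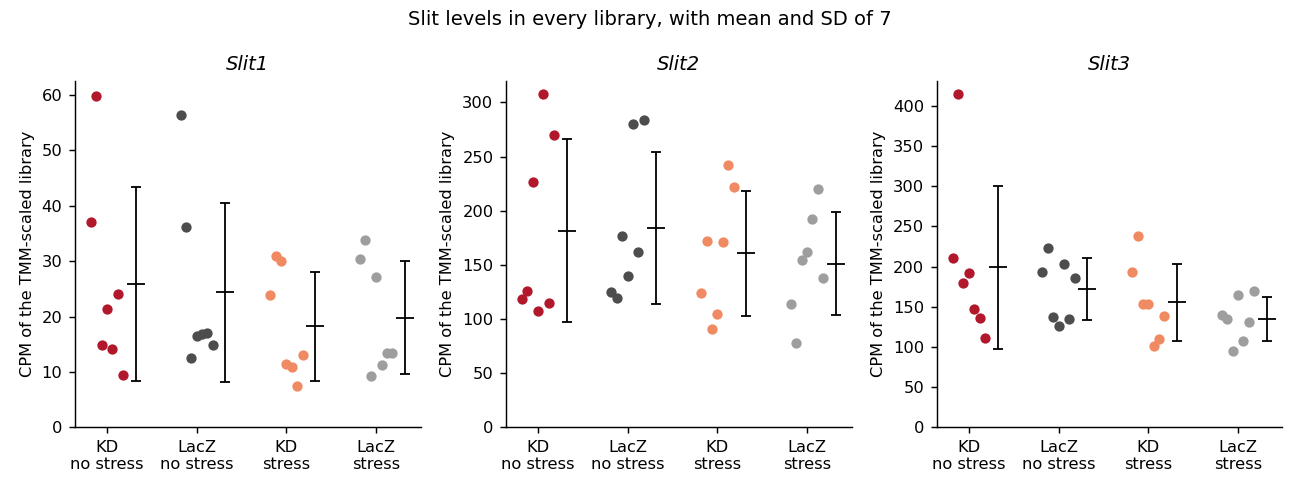
Levels of Slit1, Slit2 and Slit3 in CPM (vertical axis, from 0) in each of 28 libraries (points, placed by replicate number), for KD and LacZ without stress and KD and LacZ with stress; the bar is the mean ± SD of 7. The KD and LacZ ranges overlap for every gene, and 1 KD unstressed library stands at 414.9 CPM of Slit3.

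The log2 fold change of Slit1 for KD over LacZ was 0.09 ± 0.43 (SE) without stress, -0.12 ± 0.43 with stress and -0.02 ± 0.30 averaged over both. The 95% interval of the average, -0.64 to 0.60, still holds a reduction of 35.6%. With the library GC slope as a covariate the average was -0.01 ± 0.12, and its interval from -0.26 to 0.25 allows a reduction of at most 16.5%. Within stress states that fit gave 0.11 ± 0.17 without stress and -0.12 ± 0.17 with stress, with reductions of up to 15.7% and 28.5% allowed. A lower level of reads over the Slit1 span was thus not detected, and any direction given for KD rests on the label alone. The reductions allowed are for reads over introns and exons together, with 4.13% of the span exon. Spliced Slit1 mRNA was not counted apart, so the values set no limit on its reduction.

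The other 2 ligands were compared by the same label. Slit2 averaged 181.6 ± 84.4 CPM in KD and 184.0 ± 69.9 CPM in LacZ unstressed libraries, and 161.0 ± 57.7 CPM in KD and 151.2 ± 47.4 CPM in LacZ stressed libraries (SD, n = 7 each). Its KD unstressed libraries ran from 107.9 to 308.3 CPM with a median of 125.8, and the LacZ unstressed ones from 119.6 to 284.1 CPM with a median of 161.9. With stress the KD libraries ran from 90.7 to 241.9 CPM with a median of 171.5, and the LacZ ones from 77.7 to 220.0 CPM with a median of 154.8. The groups overlapped, and the KD median was below the LacZ median without stress and above it with stress. The log2 fold changes were -0.02 ± 0.29 (SE) without stress, 0.09 ± 0.29 with stress and 0.04 ± 0.20 on average, with an interval from -0.38 to 0.45.

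Slit3 had higher means in KD libraries in both stress states, within the spread between mice. It averaged 198.9 ± 101.2 CPM in KD and 171.9 ± 38.7 CPM in LacZ unstressed libraries, and 155.7 ± 47.6 CPM in KD and 134.7 ± 27.1 CPM in LacZ stressed libraries (SD, n = 7 each). The unstressed KD libraries ran from 111.3 to 414.9 CPM with a median of 180.0, and the LacZ ones from 125.6 to 223.4 CPM with a median of 185.5. The stressed KD libraries ran from 101.6 to 238.5 CPM with a median of 153.7, and the LacZ ones from 95.7 to 169.6 CPM with a median of 135.0. Without stress the KD median was the lower one, and the higher mean came with the single library at 414.9 CPM, KD unstressed replicate 2. The log2 fold changes were 0.21 ± 0.23 (SE) without stress, 0.21 ± 0.23 with stress and 0.21 ± 0.17 on average, and without that library they were -0.08 unstressed and 0.07 on average.

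None of the 3 Slit genes was called for the label in either stress state or on average (Benjamini-Hochberg adjusted p = 1 over 19171 genes, edgeR quasi-likelihood). The background was the same, since 0% of the 19171 genes were called in each of these comparisons by edgeR, DESeq2 and limma voomWithQualityWeights alike. At an unadjusted p under 0.05 there were 172 genes by edgeR without stress, 158 with stress and 291 on average, none of them a Slit gene. DESeq2 gave 253, 175 and 373 genes at that level and voomWithQualityWeights 694, 870 and 1210. All but the 1210 were under 0.05 of the 19171 genes, the share expected at that level if no gene differed. In exact two-sided permutation tests of mean log2 CPM, 7 libraries against 7, the p-values for the label ran from 0.379 for Slit3 with stress to 0.919 for Slit1 without stress. The smallest p that these tests allow is 5.83e-04.

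Stress gave lower means of all 3 ligands under either virus, which no adjusted p called. Over both viruses, Slit1 averaged 19.04 ± 9.66 CPM in 14 stressed and 25.1 ± 16.2 CPM in 14 unstressed libraries, Slit2 156.1 ± 51.0 and 182.8 ± 74.5 CPM, and Slit3 145.2 ± 38.8 and 185.4 ± 74.9 CPM (SD). The medians of Slit2 went the other way, at 158.5 CPM stressed and 151.0 CPM unstressed. Its median was higher with stress in KD libraries, 171.5 against 125.8 CPM, and lower in LacZ libraries, 154.8 against 161.9 CPM. For Slit1 and Slit3 the medians over both viruses were lower with stress. The log2 fold changes for stress over no stress were -0.40 ± 0.30 (SE) for Slit1, -0.23 ± 0.20 for Slit2 and -0.35 ± 0.17 for Slit3. In KD libraries they were -0.50 ± 0.43, -0.17 ± 0.29 and -0.35 ± 0.23 for Slit1, Slit2 and Slit3, and in LacZ libraries -0.30 ± 0.43, -0.28 ± 0.29 and -0.35 ± 0.23. The stressed and unstressed libraries overlapped for each gene and virus. The median over all genes tested was -0.01 in each of these 3 comparisons.

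For Slit3 the interval of the stress average, from -0.69 to -0.01, lay just below 0 (unadjusted p = 0.043 by edgeR, adjusted p = 1). Of 7 LacZ libraries with stress, 6 lay below the LacZ mean of log2 CPM without stress, and of 7 KD libraries with stress, 5 lay below the KD mean without stress. The exact permutation p for Slit3 was 0.0641 in LacZ libraries, the smallest of the 12 tests of this kind, and 0.350 in KD libraries, with an adjusted p of 0.769 and 0.909 over the 12. Without KD unstressed replicate 2, which held the 414.9 CPM, the average was -0.21. Called genes again made up 0% of 19171 for stress in KD libraries, in LacZ libraries and on average by all 3 tools. Unadjusted p-values under 0.05 were given to 424 genes on average, Slit3 among them, to 343 in KD and to 77 in LacZ libraries by edgeR. The counts were 606, 473 and 123 by DESeq2 and 1258, 935 and 673 by voomWithQualityWeights. All but the 1258 were under 0.05 of the 19171 genes, the share expected if no gene differed.

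**Figure D2:**
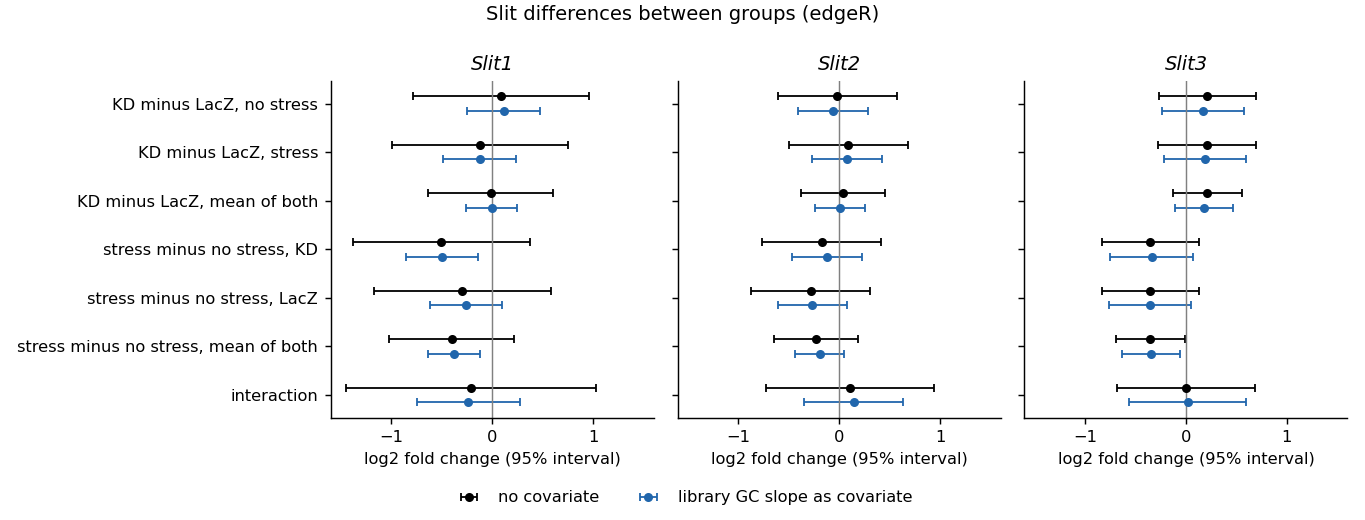
Log2 fold changes of the 3 Slit genes (horizontal axis, with 95% intervals) in 7 comparisons by edgeR, without a covariate (black) and with the library GC slope as a covariate (blue). KD over LacZ lies around 0 for Slit1 and Slit2, stress over no stress lies below 0 for all 3 genes, and the covariate narrows the intervals most for Slit1.

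With the GC slope in the fit, the values for stress hardly moved and their errors shrank, which the other GC correction gave for Slit1 and Slit2 and not for Slit3. Slit1 was -0.38 ± 0.12 (SE) on average, with an unadjusted p of 0.00492, Slit2 -0.19 ± 0.12 with 0.115 and Slit3 -0.35 ± 0.14 with 0.0200. In KD libraries Slit1 was -0.50 ± 0.17 (unadjusted p = 0.00844), and in LacZ libraries -0.26 ± 0.17. None was called, with adjusted p of 0.411 for Slit1, 0.560 for Slit2 and 0.441 for Slit3 on average by edgeR. In that fit 1954 genes had an unadjusted p under 0.05, 0 of them called. That number was above 0.05 of the 19171 genes, the share expected if no gene differed. With a smooth GC offset per library in place of the covariate, the averages were -0.39 ± 0.13 for Slit1, -0.25 ± 0.17 for Slit2 and -0.40 ± 0.23 for Slit3, the last with an interval from -0.86 to 0.07 (unadjusted p = 0.0893, adjusted p = 0.885 for each gene by edgeR). In the exact permutation test with the GC slope regressed out, Slit1 in KD libraries had the difference -0.46 in log2 CPM between stressed and unstressed libraries, with 7 of 7 stressed libraries below the unstressed mean (exact two-sided p = 0.0274, adjusted p = 0.329 over 12 tests). Left out one by one, single libraries moved the Slit1 stress average between -0.49 and -0.21, the last without LacZ unstressed replicate 1. Without the 3 libraries that stood apart within their groups in bone, striatal or T cell transcripts, the stress averages were -0.51 for Slit1, -0.31 for Slit2 and -0.45 for Slit3. All 3 were stressed libraries, while unstressed ones that stood apart in oligodendrocyte or striatal markers stayed in. The summed level of excitatory neuron markers ran from 808.1 to 1584.9 CPM in KD stressed, 923.0 to 1520.3 in KD unstressed, 997.8 to 1532.8 in LacZ stressed and 984.5 to 1937.0 CPM in LacZ unstressed libraries, with medians of 1090.4, 1350.9, 1178.0 and 1323.8 CPM in the same order, lower with stress under either virus. Over the 28 libraries the mean of these 12 markers had r = 0.477 and rho = 0.470 with Slit1 (adjusted p = 0.0218 and 0.0255 by permutation), 0.121 and 0.193 with Slit2 and 0.378 and 0.455 with Slit3. With the GC slope regressed out, r was 0.543 for Slit1 (adjusted p = 0.0141), 0.5683 for Slit2 (0.00895) and 0.295 for Slit3 (0.293). The part of the neuron markers in the Slit values for stress was not tested.

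Whether the label acted differently with and without stress was read from the interaction. It was -0.21 ± 0.60 (SE) for Slit1, 0.11 ± 0.41 for Slit2 and -0.00 ± 0.33 for Slit3, each with an adjusted p of 1 by edgeR. Called genes made up 0% of 19171, while unadjusted p-values under 0.05 numbered 68 with edgeR, 73 with DESeq2 and 576 with voomWithQualityWeights. Each count was under 0.05 of the 19171 genes. The intervals are wide, from -1.44 to 1.03 for Slit1, and would cover large differences in either direction. The comparisons above share libraries, each group entering more than one of them, so their Slit values are not independent of each other.

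The order of the 3 ligands depended on the length by which the levels were divided. Per kb of counted span, Slit2 had 0.522 ± 0.197, Slit3 0.281 ± 0.106 and Slit1 0.154 ± 0.0937 CPM per kb (SD, n = 28), and this order held in 24 of 28 libraries. Slit2 was above Slit3 in 26 libraries and above Slit1 in all but 2, while the ranges of mean ± SD of neighbours in this order overlapped. The counts cover introns too, so division by exon length alone puts genes with much intron per exon, such as Slit3, high by construction. Per kb of exon, Slit3 came first in 28 of 28 libraries, with 27.2 ± 10.2 CPM per kb, against 6.66 ± 2.52 for Slit2 and 3.73 ± 2.27 for Slit1. Slit1 was above Slit2 in 7 of these 28. With exons of protein-coding transcripts alone, Slit2 had 16.9 ± 6.37, Slit3 31.6 ± 11.9 and Slit1 3.78 ± 2.30 CPM per kb. Slit1 was thus the lowest of the 3 by its mean on every one of these scales, and the order of Slit2 and Slit3 turned with the choice of length.

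**Figure D3:**
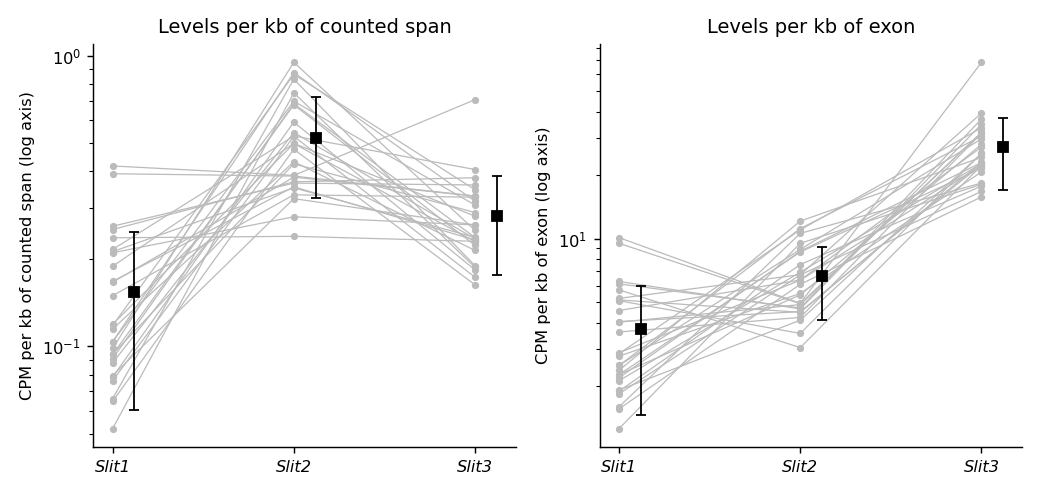
Levels of the 3 Slit genes in CPM per kb of counted span (left) and per kb of exon (right), on log axes, with 1 grey line per library and the mean ± SD of 28 in black. Slit2 is highest per kb of span in most libraries, and Slit3 is highest per kb of exon in all 28.

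Among the 28 libraries Slit1 spread most of the 3 ligands. Its biological coefficient of variation within groups was 0.547, above the median of 0.381 over all genes tested, while that of Slit2 was 0.376 and that of Slit3 0.311, both below the median. The highest library held 8.01 times the lowest for Slit1, 3.97 times for Slit2 and 4.34 times for Slit3, with coefficients of variation of 60.9%, 37.8% and 37.5%. The ratio of Slit2 to Slit1 in CPM ran from 2.10 to 32.3 with a median of 9.33. Slit1 and Slit2 had a Pearson's r of -0.592 and a Spearman's rho of -0.547 over 28 libraries (permutation p = 0.001 and 0.00282, adjusted p = 0.00309 and 0.00801 over 54 relations). Slit1 and Slit3 moved together, with r = 0.729 and rho = 0.724 (permutation p = 2.00e-05 and 4.00e-05, adjusted p = 1.08e-04 and 2.40e-04). For Slit2 and Slit3, r was -0.199 and rho -0.196 (permutation p = 0.311 and 0.313, adjusted p = 0.494 and 0.417).

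These movements ran along the GC slope of the library, in opposite directions for the GC-rich Slit1 and the AT-rich Slit2. Slit1 had r = 0.889 and rho = 0.856 with the slope, and Slit2 r = -0.793 and rho = -0.802, with permutation p-values of 1.00e-05, as low as 100000 permutations reach, and adjusted values of 6.75e-05. Slit3, nearly as GC-rich as Slit1, followed the slope less, with r = 0.478 and rho = 0.496 (permutation p = 0.00879 and 0.00784, adjusted p = 0.0216 and 0.0192). Without the 2 libraries farthest from the median slope, r was 0.865 for Slit1, -0.791 for Slit2 and 0.426 for Slit3, the last with an adjusted p of 0.0522. The slope took 79.0% of the variance of Slit1 in log2 CPM, 62.9% of that of Slit2 and 22.8% of that of Slit3, where the 4 groups took 5.45%, 4.04% and 15.9%. The SD over 28 libraries fell to 0.36 in log2 CPM for Slit1 once the slope was regressed out, against 0.79 before.

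**Figure D4:**
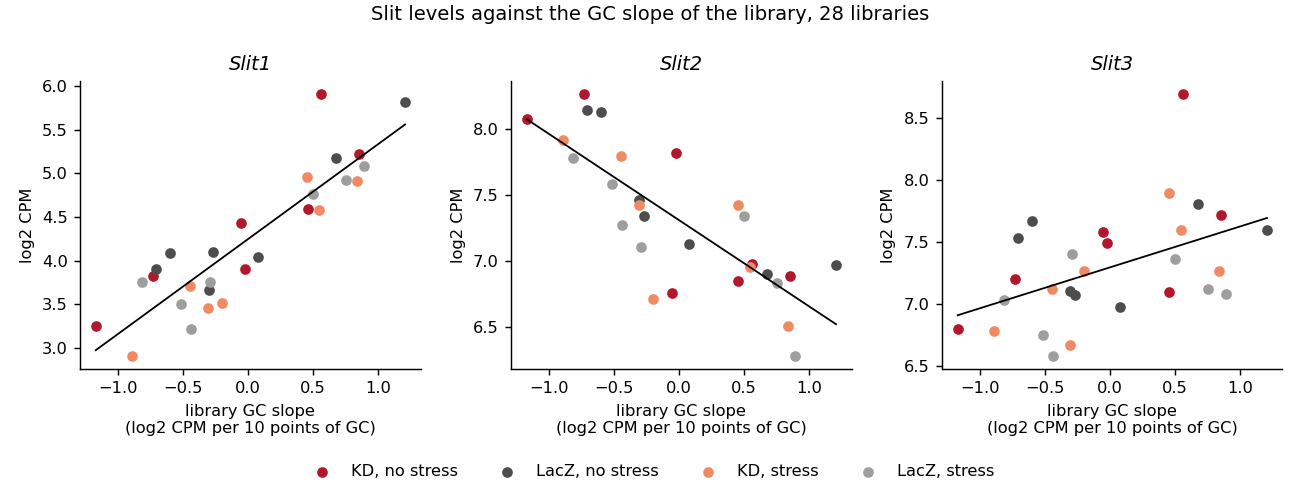
Log2 CPM of each Slit gene (vertical axis) against the GC slope of the library (horizontal axis, log2 CPM per 10 points of transcript GC), 28 libraries coloured by group, with a fitted line. Slit1 climbs with the slope, Slit2 declines and Slit3 climbs less closely, and the 4 groups are mixed along the axis.

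The libraries split at a gap in the slope between 0.07 and 0.45, with 11 above and 17 below it. Slit1 ran from 23.9 to 59.9 CPM above the gap and from 7.48 to 21.4 CPM below it, with no overlap. Slit2 ran from 77.7 to 171.9 CPM above and 104.7 to 308.3 CPM below, and Slit3 from 135.0 to 414.9 CPM above and 95.7 to 203.2 CPM below. Each group of mice had libraries on both sides, 3 of 7 above the gap in KD unstressed, 2 in LacZ unstressed, 3 in KD stressed and 3 in LacZ stressed mice. The split narrows the range of the slope within each side, which by itself lowers r, so the values there do not show how closely a gene follows the slope. Slit1 had r = 0.533 with the slope above the gap and 0.529 below it, Slit2 -0.489 and -0.718, and Slit3 -0.190 and 0.269. Slit1 and Slit3 still moved together there, with r = 0.652 above and 0.736 below, while Slit1 and Slit2 had r = -0.02 and -0.190. The permutation p of the Slit1 and Slit3 relation was 0.0329 above and 7.50e-04 below the gap.

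The titles number the samples, and 13 libraries have numbers above 20, which no label calls a batch. Their mean GC slope was -0.40, against 0.35 in the other 15. In the 13 and the 15 libraries, Slit1 had r = 0.845 and 0.924 with the slope, Slit2 -0.856 and -0.664, and Slit3 0.611 and 0.333. The numbers above 20 were held by 5 of 7 KD unstressed, 2 of 7 LacZ unstressed, 3 of 7 KD stressed and 3 of 7 LacZ stressed mice. With the number above 20 as a covariate, Slit1 for KD over LacZ was 0.51 ± 0.41 (SE) without stress and 0.18 ± 0.28 on average, above 0 and not called.

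With the slope regressed out of both genes, Slit1 and Slit2 had r = 0.405 and rho = 0.443 (adjusted p = 0.0987 and 0.0657), the opposite sign of their plain relation. Slit1 and Slit3 kept r = 0.756 and rho = 0.585 (adjusted p = 2.55e-04 and 0.00617), and Slit2 and Slit3 had r = 0.335 (adjusted p = 0.200). Genes within 1 point of the transcript GC content of each ligand show how usual its course was. The 846 genes near Slit1 had a median r of 0.917 with the slope, where Slit1 had 0.889. The 2090 genes near Slit2 had a median of -0.452, with an interquartile range from -0.777 to -0.0261, where Slit2 had -0.793. The 1327 genes near Slit3 had a median of 0.892, with an interquartile range from 0.721 to 0.961, and Slit3 at 0.478 lay below them.

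Other properties of the libraries moved with the ligands too. Slit1 fell and Slit2 climbed with the share of mitochondrial counts, which ran from 2.30% to 14.2% (r = -0.750 and 0.683, rho = -0.834 and 0.679, adjusted p = 6.75e-05 and 4.05e-04 for r), and Slit3 had r = -0.470 and rho = -0.459 (adjusted p = 0.0281). With the GC slope regressed out these were -0.02, 0.06 and -0.15. The mean of the 9 microglia markers had r = 0.629 with Slit1, -0.879 with Slit2 and 0.192 with Slit3 (rho = 0.639, -0.854 and 0.304, adjusted p = 9.64e-04, 6.75e-05 and 0.513 for r), and -0.737, -0.624 and -0.562 with the slope regressed out. That list summed to 246.9 to 720.6 CPM in KD unstressed, 204.2 to 656.9 in LacZ unstressed, 341.5 to 777.0 in KD stressed and 263.6 to 755.2 CPM in LacZ stressed libraries. The mean of the 8 mural cell markers had r = 0.872 with Slit1, -0.709 with Slit2 and 0.463 with Slit3 (rho = 0.812, -0.660 and 0.447, adjusted p = 6.75e-05, 1.08e-04 and 0.0243 for r), and 0.135, 0.329 and 0.0165 with the slope regressed out. Endothelial markers had r = 0.627 with Slit1, -0.809 with Slit2 and 0.153 with Slit3 (rho = 0.619, -0.778 and 0.143, adjusted p = 0.00173, 6.75e-05 and 0.626 for r), and -0.372, -0.458 and -0.466 with the slope regressed out. T cell markers had r = 0.0433, -0.594 and -0.155 with Slit1, Slit2 and Slit3 (rho = 0.0498, -0.643 and -0.132, adjusted p = 0.828, 0.00213 and 0.621 for r), and -0.518, -0.610 and -0.358 with the slope regressed out. Astrocyte and oligodendrocyte precursor markers passed the threshold with Slit1 (r = 0.586 and 0.481) and Slit2 (-0.535 and -0.510) and not once the slope was regressed out. By r, the interneuron, oligodendrocyte, fibroblast, striatal and bone lists did not pass with any of the 3 genes. The part of these properties in the Slit levels was not tested.

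The slope of a library on the log2 length of gene spans behaved in a similar way before correction for GC and otherwise after it. Slit1 had r = -0.674 with it, Slit2 0.829 and Slit3 -0.168 (rho = -0.625, 0.797 and -0.245, adjusted p = 4.15e-04, 6.75e-05 and 0.597 for r). Once the GC slope was regressed out, all 3 ligands had positive values, 0.853 for Slit1, 0.820 for Slit3 and 0.410 for Slit2 (adjusted p = 2.55e-04, 2.55e-04 and 0.0907). In these residuals Slit1 and Slit3 were thus higher in libraries where genes with long spans were higher, while the value of Slit2 missed the threshold.

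The genes most like each ligand were sought among 13145 named genes with a mean of at least 1 CPM, by Pearson's r of log2 CPM over 28 libraries with group means removed. Nearest to Slit1 were St3gal3, a sialyltransferase gene, at r = 0.980, Ptpru, a receptor tyrosine phosphatase gene, at 0.975, and Arhgap39 and Srebf2 at 0.974. Arhgap39 encodes the mouse relative of fly Vilse, a GTPase-activating protein that binds Robo in the fly, and Srebf2 a regulator of sterol synthesis. Arhgap39 itself had r = 0.884 with the GC slope and a transcript GC content of 58.1%. It was not among the 5 nearest to Slit1 once the slope was also removed. Slit2 was nearest to Slc2a13, a gene for an inositol transporter, at 0.963, the cadherin gene Cdh8 at 0.956, Terb1 at 0.945, Tom1l1 at 0.943 and Ankef1 at 0.941. For Slit3 they were Galnt18, a glycosyltransferase gene, at 0.955, Atp8a2 at 0.936, the calcium channel gene Cacna1c at 0.934, Chchd6 at 0.929 and Dym at 0.927.

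With the GC slope also removed, the genes nearest to Slit1 were Dtnb at r = 0.912, Trio at 0.899, Sbf2 at 0.894, Btrc at 0.891 and Adcy9 at 0.889. Their spans ran from 133.0 kb for Adcy9 to 306.9 kb for Sbf2. Slit2 kept Slc2a13 at 0.896 and Cdh8 at 0.870, joined by Fam135a at 0.875, Ppp1r9a at 0.862 and Plekhh2 at 0.856. Slit3 kept Galnt18 at 0.943, joined by Frmd4a at 0.947, Exoc6b at 0.938, Tnik at 0.937 and Otud7a at 0.935, with spans from 308.3 kb for Galnt18 to 596.3 kb for Frmd4a. No Slit gene was among the 5 nearest of another: with the slope removed, Slit3 had rank 251 for Slit1, at r = 0.741.

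The Robo receptors, through which Slit proteins act, were next in the pathway. Robo2 averaged 593.9 ± 315.6 CPM in KD and 581.8 ± 237.9 CPM in LacZ unstressed libraries, and 495.0 ± 196.5 CPM in KD and 486.2 ± 165.9 CPM in LacZ stressed libraries (SD, n = 7 each). Robo1 averaged 295.6 ± 80.1 and 274.8 ± 103.3 CPM in KD and LacZ unstressed libraries, and 245.2 ± 56.7 and 239.8 ± 73.5 CPM in KD and LacZ stressed libraries. Robo3, known for letting axons cross the midline, and Robo4, known from endothelium, were low, at 0.608 to 9.37 CPM and 0.602 to 3.18 CPM over all libraries. For KD over LacZ on average Robo1 had a log2 fold change of 0.07 ± 0.16 (SE), Robo2 of 0.03 ± 0.22, Robo3 of -0.53 ± 0.32 and Robo4 of -0.04 ± 0.25. For stress over no stress Robo1 had -0.23 ± 0.16, Robo2 -0.26 ± 0.22, Robo3 0.44 ± 0.32 and Robo4 -0.22 ± 0.25. Within the stress states the label gave Robo1 0.11 ± 0.23, Robo2 0.03 ± 0.31, Robo3 -0.41 ± 0.45 and Robo4 0.11 ± 0.36 without stress, and 0.03 ± 0.23, 0.03 ± 0.31, -0.64 ± 0.45 and -0.19 ± 0.36 in the same order with stress. Stress gave -0.27 ± 0.23, -0.26 ± 0.31, 0.32 ± 0.45 and -0.37 ± 0.36 in KD libraries, and -0.20 ± 0.23, -0.26 ± 0.31, 0.55 ± 0.45 and -0.07 ± 0.36 in LacZ libraries. The interaction of Robo1 was -0.07 ± 0.32, of Robo2 -0.00 ± 0.44, of Robo3 -0.23 ± 0.64 and of Robo4 -0.30 ± 0.51, and none of the 4 receptors was called in any of the 7 comparisons. In levels, Robo2 ran beside Slit2 over the 28 libraries, with r = 0.923, Robo1 had r = 0.720 with Slit2, and Robo4 r = 0.807 with Slit1, all given as descriptions, since each of these genes also moved with the GC slope (r = -0.906, -0.663 and 0.843).

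Behind the receptors stand the srGAP proteins and other Robo effectors, co-receptors and binding partners, the enzymes that make the heparan sulfate Slit binding needs, and proteins that route Robo in the cell. Of these 34 pathway genes, receptors included, 33 were tested, and Flrt3 was listed at 0 in all libraries. In each of the 7 comparisons 0 of 33 were called upward and 0 downward, as for the 3 ligands and for all genes. For the label on average, 16 lay above 0 and 17 below, with a median of -0.00 against -0.02 over all genes, of which 55.9% lay below 0; with library totals 20 lay above 0 and 13 below, and 47.7% of all genes below. Outside the receptors the smallest unadjusted p there belonged to Pak1, a kinase gene downstream of Rac and Cdc42, with -0.22 ± 0.09 (SE, unadjusted p = 0.0203), then Srgap1 with 0.29 ± 0.15 (0.0603) and Ndfip1, an adaptor of ubiquitin ligases that sends Robo1 for degradation, with -0.15 ± 0.11 (0.171), all with an adjusted p of 1 by edgeR. Pak1 had 307.7 ± 53.0 CPM in KD and 354.5 ± 46.9 CPM in LacZ unstressed libraries, and 297.8 ± 40.5 CPM in KD and 351.9 ± 57.5 CPM in LacZ stressed libraries.

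For stress on average, 25 of the 33 pathway genes lay below 0 and 8 above, with a median of -0.11 against -0.01 over all genes, of which 53.7% lay below 0. With library totals in place of TMM, 22 of 33 lay below 0 and the median was -0.06, where all genes had a median of 0.06 and 35.2% below 0. By role, 9 of 14 Robo effectors, 6 of 6 co-receptors and binding partners, 6 of 6 heparan sulfate enzymes, 3 of 4 receptors and 1 of 3 trafficking genes lay below 0 with TMM, with medians of -0.07, -0.22, -0.12, -0.23 and 0.02. The counts below 0 were 27 of 33 in KD and 25 of 33 in LacZ libraries, where 52.5% and 54.5% of all genes lay below 0. These counts are a description of the list, and none of its genes was called.

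**Figure D5:**
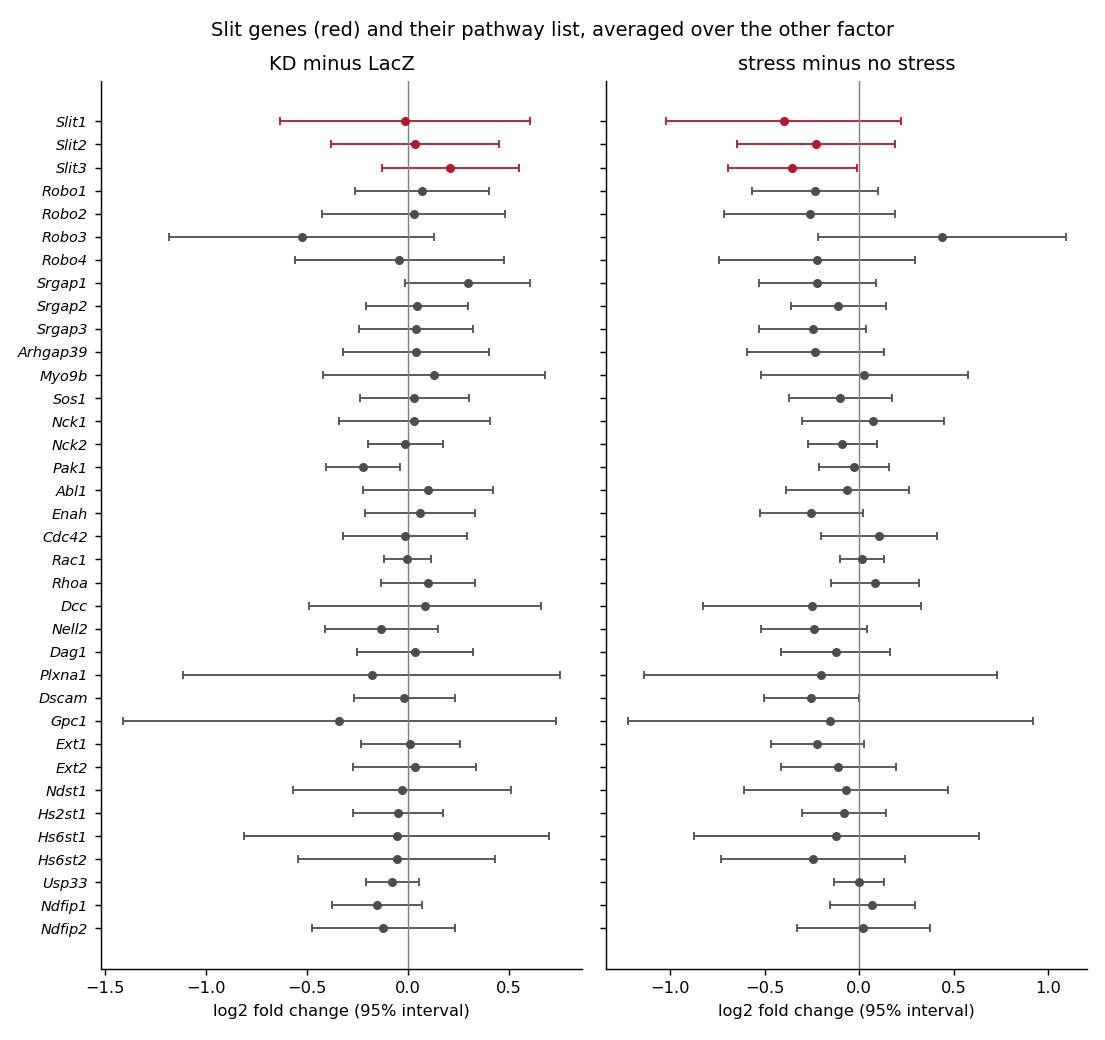
Log2 fold changes with 95% intervals (edgeR, no covariate) of the 3 Slit genes (red) and the 33 tested pathway genes (grey), for KD over LacZ (left) and stress over no stress (right), each averaged over the other factor. Nearly all intervals hold 0; on the right most points, the 3 ligands included, lie below 0.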

How the data were processed

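Total RNA from vmPFC punches of 28 mice was made into stranded libraries, per the labels' protocols. The authors deposited raw counts per gene and library: featureCounts 1.6.2 was run on Ensembl 90 (GRCm38) genes from start to end, on fragments without duplicates and with no strand option, per the file headers; HISAT2 and DESeq2 are named in the submitters' processing notes. Of 52636 gene IDs, 52403 matched a symbol in GENCODE M21. Totals of 30.6 to 44.3 M fragments set the counting precision, and p-values measure the spread between 7 mice a group.

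Counts were scaled by TMM, filtered by group (19171 genes) and tested with edgeR 4.0.16 (quasi-likelihood, robust, R 4.3.3) over all 28 libraries, with Benjamini-Hochberg adjustment at 0.05. Log2 CPM used a prior count of 2. Exact permutation tests and permutations of 100000 draws used NumPy 2.4.6, with ranks from SciPy 1.17.1. Coding sequences were translated and aligned as amino acids with MAFFT 7.526. DESeq2 1.42.0, limma 3.58.1 (voomWithQualityWeights), other scalings and filters, GC corrections and left-out libraries were alternatives; the covariate for title numbers, the splits of libraries and the fit without 3 libraries were chosen after seeing the data. On simulated counts for KD over LacZ without stress, 47.0% of 100 genes with a log2 change of 1 and 89.0% of 100 with a change of 2 were called, as were 6 of 18929 unchanged genes.

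The members and lists were chosen with earlier results of these data known. Named genes are the Slit genes, the Robo receptors, the 3 other pathway genes with the smallest p for the label on average, the 5 genes most like each Slit gene (symbols of the Gm-number and Rik kind left out) and genes overlapping their spans; 1 of the genes most like Slit1 is not reported here.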

Additional observations from a re-analysis of the deposited data

Results flagged for a closer look

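The Slit3 level of KD unstressed replicate 2, 414.9 CPM, lay far from the other 6 libraries of its group, which ran from 111.3 to 211.0 CPM. Its gap to the nearest library was 0.672 of the group's range, above Dixon's 95% critical value for 7 samples. It was 1 of 12 combinations of gene and group tested, and chance gives about 1 in 20 groups such a gap. The same library had the highest Slit1 of its group, 59.9 CPM, with a gap of 0.451 of the range, below the critical value.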

How the results depend on the processing

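No paired analysis was possible because the replicate numbers follow accession order and pair no mice. No gene was called in any comparison under any alternative run. Beside single libraries left out, 205 recomputed log2 fold changes kept their direction and 17 did not. Those that turned were, with voomWithQualityWeights, Slit1 for the label with stress (0.15) and on average (0.25), Slit2 there (-0.11 and -0.16) and Slit2 for stress in KD libraries (0.016). Library totals gave 0.024 for Slit1 and the label on average, and the title number as covariate 0.18 for Slit1 and -0.065 for Slit2. Without the 3 stressed libraries chosen for their bone, striatal or T cell transcripts, Slit2 turned for the label and the interaction. It was -0.028 with stress and -0.024 on average for the label, and -0.0092 for the interaction. The Slit3 interaction was 0.0195 with RLE factors and with DESeq2, 0.017 with the GC slope, 0.0083 without a filter, 0.0066 with a smooth GC offset and 0.0048 with the first component. The cause was not tested.

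Leaving out single libraries moved the label without stress between -0.27 and 0.44 for Slit1, -0.20 and 0.12 for Slit2 and -0.078 and 0.32 for Slit3; with stress between -0.30 and 0.058, -0.037 and 0.20, and 0.074 and 0.29; on average between -0.20 and 0.16, -0.054 and 0.10, and 0.066 and 0.27. Stress moved in KD libraries between -0.68 and -0.15, -0.30 and 0.0042, and -0.49 and -0.066, in LacZ libraries between -0.47 and 0.068, -0.40 and -0.15, and -0.42 and -0.28, and on average between -0.49 and -0.21, -0.29 and -0.14, and -0.42 and -0.21. The interaction moved between -0.56 and 0.15, -0.029 and 0.29, and -0.14 and 0.29. Differences of log2 CPM in the exact tests moved, for the label without stress, between -0.20 and 0.28, -0.21 and 0.053, and -0.079 and 0.24, and with stress between -0.30 and 0.044, -0.074 and 0.20, and 0.067 and 0.27; for stress in KD libraries between -0.64 and -0.20, -0.24 and 0.020, and -0.40 and -0.088, and in LacZ libraries between -0.41 and -0.018, -0.37 and -0.12, and -0.42 and -0.27. Of the exact tests with a single library left out, 143 kept their sign with an unadjusted p of 0.05 or above. A further 5 kept it with an unadjusted p under 0.05, and 20 changed sign. With the GC slope regressed out, Slit1 for stress in KD libraries was -0.46 (exact p = 0.0274).

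Above the gap in the GC slope, where the split itself narrows its range, r with the slope was 0.533 for Slit1 and -0.489 for Slit2, neither passing the threshold. Slit3 missed it without the 2 farthest libraries (0.426), in titles up to 20 (0.333), above the gap (-0.190) and below it (0.269). Slit1 and Slit2 had 0.405 with the slope regressed out, -0.422 in titles up to 20, and -0.0177 above and -0.190 below the gap. Slit2 and Slit3 turned to 0.335, 0.207, 0.426 and 0.0251 in these 4 settings. With the slope regressed out, span length turned for Slit1 (0.853) and Slit3 (0.820), microglia markers for Slit1 (-0.737) and Slit3 (-0.562), and mural markers for Slit2 (0.329). The order Slit2, Slit3, Slit1 held in 0 libraries per kb of exon and in 3 per kb of exon of protein-coding transcripts. Counting precision was lowest for Slit1, with 180 fragments in its lowest library, though counting error was small beside the spread between mice.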
